A study of Rattus norvegicus with 24 samples.

Results

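Zinc finger transcription factor genes were followed in rat kidney across 3 strains. The members were all probe sets of both array types whose single gene symbol in the array annotation was Trps1 or Sp1, or began with Zfp, Znf, Zbtb, Zeb, Zhx or Klf and a number, without the RNA-binding Zfp36 family (5 probe sets). This gave 249 genes with 406 probe sets, of 31142 probe sets in all. Read by its letters the rule also took Zbtb8os and Zbtb11os1, which lie on the opposite strand of a Zbtb gene and do not belong to the family. On RAE230A lay 177 of the member probe sets and on RAE230B 229, and 45 genes were on both.

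The study compared the left kidney of male Dahl salt-sensitive rats (SS/jr, called S) with that of the congenic substrains ET3x1 and ET3x2. From general knowledge of these strains, such rats are S rats in which a stretch of chromosome 3 near Edn3, the endothelin 3 gene, comes from a salt-resistant strain. All 3 groups ate 0.4% NaCl until 39 to 41 days of age and then 2% NaCl for 28 days, so that no group without the raised salt diet was compared, and kidneys were taken at 67 to 69 days. Total RNA of 2 rats was pooled for each S pool (A, B, C and D) and of 3 rats for each ET3x1 pool (E, F, G and H) and each ET3x2 pool (I, J, K and L), which gave 4 pools per group, 32 rats and 24 arrays. Whole kidney RNA mixes all cell types of the organ, and here fewer cells of a type and less RNA per cell cannot be told apart.

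Zinc finger factors bind DNA through small folds held by a zinc ion, and a string of such fingers reads a stretch of sequence. Klf and Sp1 proteins bind GC-rich promoter elements, Zeb proteins bind E-boxes and repress epithelial genes, and Zbtb proteins join the fingers to a BTB domain that recruits corepressors. The many Zfp genes include the KRAB repressors, which act through Trim28 on chromatin, and in kidney Klf factors are known for roles in podocytes, tubule metabolism and the response to injury.

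The values are deposited signals, taken as log2 from their range. A probe set was tested when its mean over the 12 pools reached the 30th percentile of its array, 7.52 on RAE230A and 6.854 on RAE230B, which is called the filter level here. Of the members 274 probe sets (188 genes) were tested, 123 on RAE230A and 151 on RAE230B. The other 132 probe sets were not, and 61 genes had no tested probe set. A probe set was called when limma gave an adjusted p under 0.05, with Benjamini-Hochberg adjustment over all tested probe sets of the array. Where a group's mean lay under the filter level, the size of a difference depends on an unknown background and no fold is given. Each p-value weighs a difference against the spread between pools of different rats.

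The labelled tissue was borne out by 6 of 6 tubule markers past the filter, with mean signals of 10.84 to 14.39, while 0 of the 3 adrenal markers on the arrays passed, at 5.85 to 7.35. Actin control probes compare the 5' with the 3' end of a transcript, as a sign of how far the RNA was intact. Their 5' minus 3' difference on RAE230A was −1.27, −1.27 and −1.14 in pools A, B and J and −1.66 to −2.10 in the other 9. On the same array the GAPDH controls did not set A and B apart. They gave −0.81 in A, −0.75 in B, −0.64 in J and −0.71 to −1.04 in the other 9. Results without A, B and J, the pools set apart by actin, are also given. They appear where leaving those pools out changed the outcome of a called probe set or one near the threshold.

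In all, 10 zinc finger probe sets of 9 genes were called, and all 10 were lower in ET3x2 than in ET3x1. In that comparison 3.65% of tested members were called, against 1.48% of all tested probe sets. Of the 323 calls over all tested probe sets there, 302 were lower in ET3x2 too. The called genes were Trps1, Sp1, Zbtb41, Zeb2, Zbtb20 (2 probe sets), Zfp451, Zfp329, Zfp91 and Zfp318. Of the 10, 5 were also lower in ET3x2 than in S (Trps1, Sp1, Zbtb41, Zeb2 and 1 Zbtb20 probe set), 3 were also higher in ET3x1 than in S (Zfp451, Zfp329 and the other Zbtb20 probe set), 2 differed from S in neither (Zfp91 and Zfp318), and 0 in both. The 3 comparisons share pools, so that they are not independent of each other. The S mean lay between the means of both congenic groups for 8 of the 10.

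The promoters of 7 of the 9 called genes are in the RefSeq table used here (assembly GRCr8), each from 250 bases before to 50 after the annotated start. Those of 3 genes that fell in both comparisons with ET3x2, and of Zfp451, which rose in ET3x1, are shown to set out what DNA stands at their starts. Sequences run 5' to 3' along the gene, and capitals mark the GC box GGGCGG bound by Sp1 and Klf factors. Sp1 lies at chr7:135419800-135420099 (plus strand), Zbtb41 at chr13:53593463-53593762 (plus), Zeb2 at chr3:49754274-49754573 (minus) and Zfp451 at chr9:43536557-43536856 (minus).
Sp1: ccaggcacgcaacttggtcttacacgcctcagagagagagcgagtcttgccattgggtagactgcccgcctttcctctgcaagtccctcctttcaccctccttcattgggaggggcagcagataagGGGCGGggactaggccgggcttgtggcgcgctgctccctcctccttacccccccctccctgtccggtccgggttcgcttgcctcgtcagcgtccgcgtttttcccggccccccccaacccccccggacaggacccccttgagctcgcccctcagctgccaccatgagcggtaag
Zbtb41: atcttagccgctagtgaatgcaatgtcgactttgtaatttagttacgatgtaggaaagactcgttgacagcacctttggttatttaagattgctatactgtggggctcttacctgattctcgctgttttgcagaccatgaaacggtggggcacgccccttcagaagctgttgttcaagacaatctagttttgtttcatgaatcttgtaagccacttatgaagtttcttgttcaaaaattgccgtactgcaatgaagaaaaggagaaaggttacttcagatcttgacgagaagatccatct
Zeb2: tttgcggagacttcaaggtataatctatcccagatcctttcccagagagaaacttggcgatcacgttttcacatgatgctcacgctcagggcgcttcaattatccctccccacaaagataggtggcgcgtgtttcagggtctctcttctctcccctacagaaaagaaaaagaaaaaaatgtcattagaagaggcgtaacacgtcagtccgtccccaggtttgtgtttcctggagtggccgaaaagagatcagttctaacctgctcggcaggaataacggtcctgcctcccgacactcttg
Zfp451: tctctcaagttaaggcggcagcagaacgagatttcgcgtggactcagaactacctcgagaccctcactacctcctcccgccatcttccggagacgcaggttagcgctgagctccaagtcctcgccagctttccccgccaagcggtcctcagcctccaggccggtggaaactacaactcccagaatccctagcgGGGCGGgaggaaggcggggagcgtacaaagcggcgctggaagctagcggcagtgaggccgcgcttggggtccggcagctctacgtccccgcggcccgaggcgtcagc

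The windows were searched on both strands for the GC box, for the E-box CAGGTG that Zeb proteins bind and for the cAMP response element TGACGTCA. The Sp1 window held 1 GC box, starting at position −124 from the gene start, the Zfp451 window 1 at −57, and the Zbtb41 and Zeb2 windows none of the 3 motifs. A GC box was in 4 of the 7 promoters of called genes, the E-box in 1 and the cAMP element in 0. Over the 203 matched member genes the shares were 49.3%, 20.7% and 2.46%, and over the promoters of all tested genes (9282) they were 61.1%, 18.3% and 3%. In the whole table of 27457 promoters they were 34.9%, 18.7% and 1.91%. A match describes these letters and does not show binding.

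Against S, ET3x2 kidneys had 5 of the 274 tested zinc finger probe sets called, 1.82%, and all 5 were lower. Over all tested probe sets 0.344% were called in this comparison and 0.28% were called lower. The genes were put forward with results of these data known, so that this excess is not independent evidence. The median difference of all tested members was −0.01 (log2), against 0.02 over all tested probe sets.

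Trps1 encodes a GATA-type zinc finger repressor whose loss causes a syndrome of hair, face and bone growth. Its probe set 1383112_at (RAE230B) read 9.62, 9.12, 9.45 and 9.41 in the S pools, 9.85, 9.54, 10.11 and 9.27 in the ET3x1 pools, and 8.39, 8.71, 8.26 and 8.07 in the ET3x2 pools. Every ET3x2 pool lay under every S and ET3x1 pool, and the S and ET3x1 pools overlapped. Trps1 fell in ET3x2 by 1.04 against S (log2, SE 0.173, 2.06-fold lower, adjusted p = 0.0193) and by 1.33 against ET3x1 (2.52-fold lower, adjusted p = 0.00124). The call against S was lost without pool A (adjusted p = 0.0805), C (0.0794), I (0.0644), K (0.0838) or L (0.0531), and without A, B and J together (0.0501), at differences of −0.95 to −1.19. The second probe set, 1385227_at, read 8.31 to 9.07 in S, 8.51 to 8.89 in ET3x1 and 7.83 to 8.30 in ET3x2. Its ET3x2 pools too lay under all others, with −0.67 against S (SE 0.147, adjusted p = 0.0748) and −0.61 against ET3x1 (adjusted p = 0.0539), neither of them called. Without pools A, B and J the difference from ET3x1 was −0.68 and passed (adjusted p = 0.00594).

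Sp1, the broadly expressed activator that binds GC boxes, had 1 called probe set among 4 tested. Probe set 1392180_at (RAE230B) read 8.65, 8.22, 8.64 and 8.55 in S, 8.84, 8.52, 8.86 and 8.20 in ET3x1, and 7.66, 7.89, 7.57 and 7.77 in ET3x2. The ET3x2 pools again lay below all 8 others, while S and ET3x1 overlapped. It fell in ET3x2 by 0.79 against S (SE 0.140, 1.73-fold lower, adjusted p = 0.0246) and by 0.88 against ET3x1 (1.84-fold lower, adjusted p = 0.00497). Against S the call was lost without pool A (0.0982), C (0.0946), I (0.0947), K (0.119) or L (0.0599), and without A, B and J together (0.0756). The brightest Sp1 probe set, 1371880_at on RAE230A, read 10.46 to 10.51 in S, 10.48 to 10.65 in ET3x1 and 10.27 to 10.65 in ET3x2, so that all 3 groups overlapped. It differed by −0.02 (SE 0.0845) against S and −0.13 against ET3x1, and 1379384_at by −0.05 and −0.01 and 1392631_at by 0.13 and −0.05, none of them called. A fall of Sp1 in ET3x2 was thus seen in 1 of 4 tested probe sets, and one more probe set, 1369247_at, lay under the filter level in every group.

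Zbtb41, which encodes a BTB zinc finger protein, was read by 1 tested probe set, 1398217_at. Its signals were 7.74, 7.39, 8.14 and 7.49 in S, 7.68, 7.49, 7.65 and 7.35 in ET3x1, and 6.80, 6.85, 6.78 and 6.93 in ET3x2. The ET3x2 pools lay together around the filter level and below all others. Zbtb41 fell in ET3x2 by 0.85 against S (SE 0.132, adjusted p = 0.0133) and by 0.70 against ET3x1 (adjusted p = 0.0133). The first call was lost without pool A (0.0609), I (0.0575) or K (0.0656) and without A, B and J (0.0501), and the second without E (0.0611) or K (0.0583).

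Zeb2 encodes a repressor of E-cadherin that is expressed in mesenchymal, endothelial and myeloid cells. Probe set 1395130_at read 7.87, 7.97, 7.53 and 7.51 in S, 7.77, 7.51, 7.55 and 8.14 in ET3x1, and 7.12, 7.05, 6.94 and 7.04 in ET3x2, and the ET3x2 pools did not overlap with the others. It fell in ET3x2 by 0.68 against S (SE 0.134, 1.60-fold lower, adjusted p = 0.0435) and by 0.70 against ET3x1 (1.63-fold lower, adjusted p = 0.0138). Against S the call was lost without any 1 of pools A, B, C, E, I, J, K and L (adjusted p 0.0693 to 0.177), and without A, B and J the difference was −0.48 (adjusted p = 0.461). Against ET3x1 it was lost without E (0.0550) or K (0.0635). The 2 other tested Zeb2 probe sets were not called, 1390940_at with 0.08 against S and −0.03 against ET3x1, and 1392441_at with −0.07 and −0.04. The fourth, 1393795_at, lay under the filter level in every group (means 5.63, 6.15 and 5.23 in S, ET3x1 and ET3x2).

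Markers of endothelium, stroma and leucocytes are given beside Zeb2, as the range over pools of the mean signal of each list about its average. The 4 endothelial markers lay at −0.13 to 0.20 in S, −0.15 to 0.08 in ET3x1 and −0.04 to 0.10 in ET3x2, and the 4 stromal markers at −0.13 to 0.28, −0.22 to −0.00 and −0.10 to 0.15. The 3 leucocyte markers past the filter lay at −0.13 to −0.03 in S, −0.04 to 0.16 in ET3x1 and −0.06 to 0.17 in ET3x2. Single markers of a list went both ways. The means in S, ET3x1 and ET3x2 were 10.47, 10.51 and 10.36 for Kdr 1367948_a_at and 10.42, 10.33 and 10.60 for Eng. The part of cell makeup in the Zeb2 result was not tested.

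Zbtb20, a BTB repressor known for silencing alpha-fetoprotein in liver, was called with both of its tested probe sets, but in different comparisons with S. Probe set 1394849_at read 7.60, 6.99, 7.58 and 6.80 in S, 7.51, 7.14, 7.34 and 6.96 in ET3x1, and 6.28, 6.22, 6.50 and 6.24 in ET3x2. It fell in ET3x2 by 0.93 against S (SE 0.170, adjusted p = 0.0296) and by 0.93 against ET3x1 (adjusted p = 0.0110), and the ET3x2 mean was under the filter level. The call against S was lost without pool A (0.0982), C (0.103), I (0.107), J (0.0653), K (0.0799) or L (0.0875), and without A, B and J (0.208).

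The brighter Zbtb20 probe set, 1379578_at, read 10.76, 10.45, 10.10 and 9.71 in S, 11.11, 10.93, 11.21 and 11.11 in ET3x1, and 10.05, 10.04, 10.07 and 10.16 in ET3x2. Here the ET3x1 pools stood above all others, and the 4 S pools were spread around the ET3x2 pools. It rose in ET3x1 by 0.84 against S (SE 0.165, 1.78-fold, adjusted p = 0.0349) and was lower in ET3x2 than in ET3x1 by 1.01 (2.01-fold, adjusted p = 0.00602). ET3x2 against S differed by −0.17 (adjusted p = 0.765). The rise against S was lost without any 1 of pools B, C, E, F, G, H, I, K and L (adjusted p 0.0509 to 0.125), at differences of 0.78 to 0.90. The third probe set, 1382524_at, lay under the filter level in every group.

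**Figure D1:**
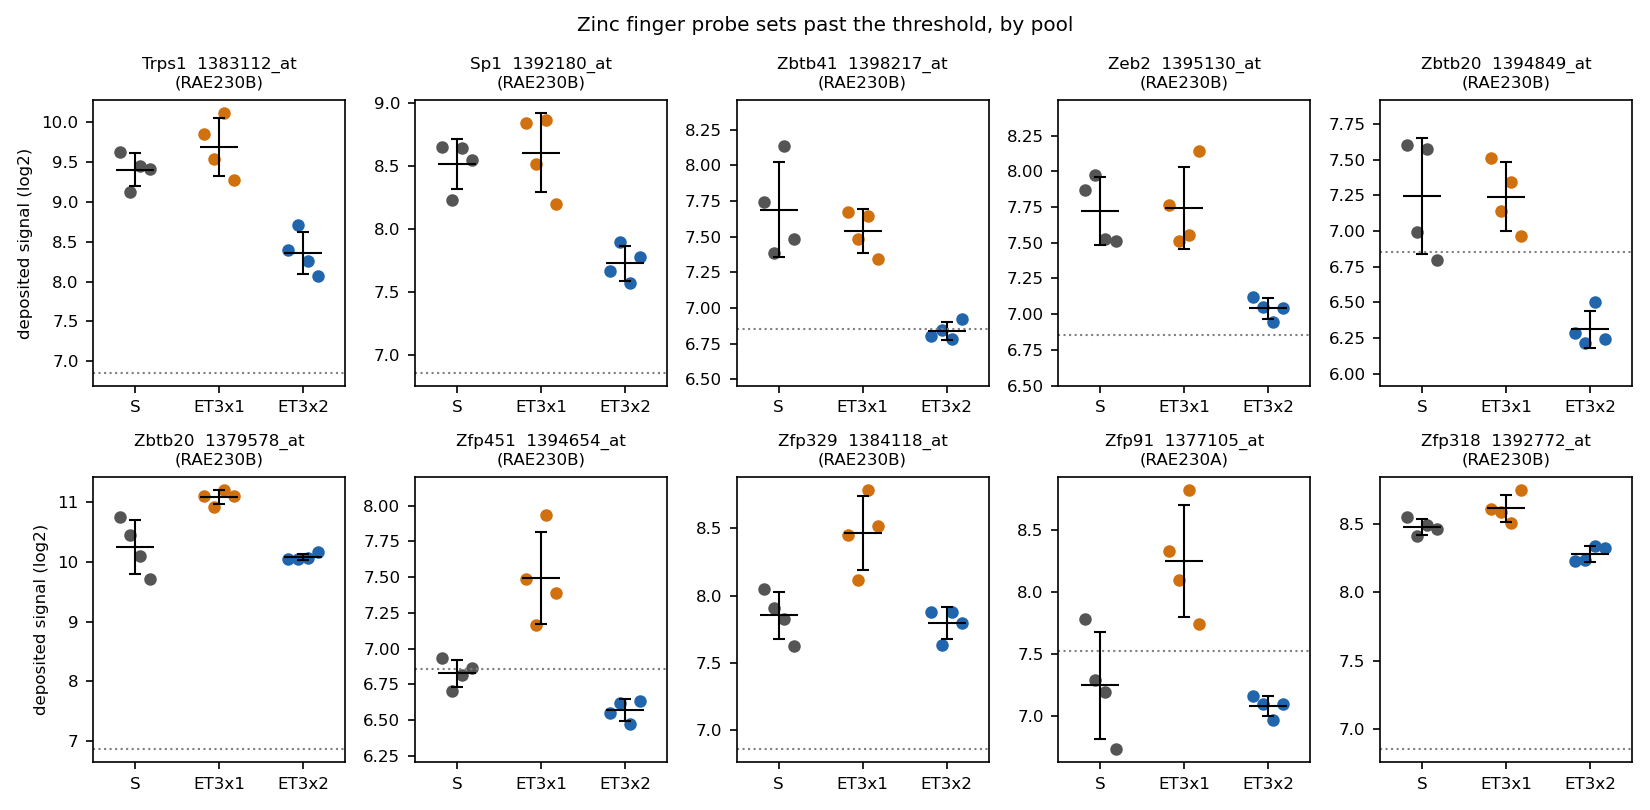
Deposited signal (log2, vertical axis) of the 10 called zinc finger probe sets in the 12 pools, by group (horizontal axis), with 1 point per pool, the group mean and SD as bars and the filter level as a dotted line. In the first 5 panels the 4 ET3x2 pools lie below the pools of S and ET3x1, and in Zbtb20 1379578_at, Zfp451 and Zfp329 the 4 ET3x1 pools lie above the others.

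Against S, ET3x1 kidneys had 3 of 274 tested zinc finger probe sets called, 1.09%, and all 3 were higher. Over all tested probe sets the background was 0.44% called and 0.431% called higher. The median difference of the members was 0.00, and of all tested probe sets −0.00. Beside the bright Zbtb20 probe set these were Zfp451 and Zfp329. The Zfp451 probe set reached the filter level only through the ET3x1 pools, where it was high.

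Zfp451 encodes a SUMO ligase that also acts as a corepressor in TGF-beta signalling. Its probe set 1394654_at read 6.93, 6.71, 6.81 and 6.86 in S, 7.49, 7.17, 7.94 and 7.39 in ET3x1, and 6.55, 6.62, 6.47 and 6.63 in ET3x2. The 3 groups did not overlap, with ET3x1 highest and ET3x2 lowest. Zfp451 rose in ET3x1 by 0.67 against S (SE 0.124, adjusted p = 0.0260) and was lower in ET3x2 than in ET3x1 by 0.93 (adjusted p = 0.00143), and the means of S and ET3x2 lay under the filter level. The difference of ET3x2 from S was −0.26 (adjusted p = 0.495). The rise against S was lost without pool B (0.0896), C (0.0794) or E (0.0877) and without A, B and J (0.144). The other probe set, 1382242_at, gave 0.13 in ET3x1 against S and −0.24 in ET3x2 against ET3x1, neither called.

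Zfp329 was called with 1384118_at, which read 8.05, 7.91, 7.83 and 7.63 in S, 8.45, 8.12, 8.79 and 8.52 in ET3x1, and 7.88, 7.63, 7.88 and 7.79 in ET3x2. All ET3x1 pools were above all others, and S and ET3x2 overlapped. It rose in ET3x1 by 0.62 against S (SE 0.124, 1.53-fold, adjusted p = 0.0399) and was lower in ET3x2 than in ET3x1 by 0.67 (1.59-fold, adjusted p = 0.0115). The rise was lost without any 1 of pools B, C, D, E, G, H, I, K and L (adjusted p 0.0583 to 0.125), at differences of 0.51 to 0.63. Its other tested probe sets differed by −0.07 each in ET3x1 against S and by 0.07 and 0.10 in ET3x2 against ET3x1, not called.

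Between the congenic substrains 10 of 274 tested zinc finger probe sets were called, 3.65%, all lower in ET3x2, where 1.48% of all tested probe sets were called and 1.39% were called lower. On RAE230B this was 9 of 151 members (5.96%, against 1.94% of all tested there), and on RAE230A 1 of 123 (0.813%, against 1.04%). These counts include the called Zfp451 and Zfp91 probe sets, which reached the filter level only through the ET3x1 pools, where they were high. The median difference of the members was 0.00, against 0.03 over all tested probe sets, and 134 of the 274 (48.9%) lay below 0, against 39.2% of all tested. At an unadjusted p under 0.05 stood 42 members in this comparison (15.3%, against 13.1% of all tested probe sets), 39 for ET3x1 and S (14.2%, against 11.8%) and 31 for ET3x2 and S (11.3%, against 10.9%).

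Zfp91, a ubiquitin ligase of non-canonical NF-kappaB signalling, gave the only call on RAE230A. Probe set 1377105_at read 7.78, 7.29, 7.19 and 6.73 in S, 8.33, 8.09, 8.82 and 7.74 in ET3x1, and 7.16, 7.10, 6.97 and 7.10 in ET3x2. The ET3x1 pools lay above all ET3x2 pools, and ET3x1 pool H was just below S pool A. It was lower in ET3x2 than in ET3x1 by 1.17 (SE 0.209, adjusted p = 0.0160), a call lost without pool E (0.0664), G (0.0581) or K (0.0784). In ET3x1 against S the difference was 1.00 (adjusted p = 0.0845), and the means of S and ET3x2 lay under the filter level. Without pools A, B and J the difference of ET3x1 from S was 1.28 and passed (adjusted p = 0.0298). The mean over the 12 pools reached the filter level only through the ET3x1 pools. The other 6 tested Zfp91 probe sets differed between the substrains by −0.68 to 0.16, and none was called.

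Zfp318 encodes a zinc finger protein needed for IgD expression in mature B cells. Its probe set 1392772_at read 8.55, 8.41, 8.49 and 8.46 in S, 8.61, 8.58, 8.51 and 8.75 in ET3x1, and 8.23, 8.23, 8.34 and 8.32 in ET3x2. The ET3x2 pools were below all others, with little spread within each group. It was lower in ET3x2 than in ET3x1 by 0.33 (SE 0.0612, 1.26-fold, adjusted p = 0.0112), the smallest difference among the 10, and −0.20 against S was not called (adjusted p = 0.260). On RAE230A the Zfp318 probe set 1389340_at gave −0.17 between the substrains.

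Of the 10 calls between the substrains, 7 were kept in every one of the 22 alternative analyses that tested them, those of both Zbtb20 probe sets, Trps1, Sp1, Zfp451, Zfp329 and Zfp318. Of these, Zfp451 had reached the filter level only through its ET3x1 pools, and its call was also kept without a filter. Counting all 3 comparisons, 11 of the 18 calls were lost in at least 1 alternative, among them every call against S, and 0 reversed in sign. The alternative with members by current RefSeq symbols used the main fit and so could not change the call of any probe set. With only both compared groups in the fit, calls against S were lost for Zbtb20 1379578_at (adjusted p = 0.137), Zfp329 (0.127), Zfp451 (0.108) and Zbtb20 1394849_at (0.0662). With p-values adjusted over both arrays together Zfp329 (0.0544) and Zeb2 (0.0564) were lost, without a filter Zeb2 (0.0509), and after quantile normalization Zbtb20 1379578_at (0.0718).

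Several probe sets of 1 gene did not always read alike. The 9 called genes had 31 probe sets, of which 26 were tested, 16 of these were not called in any comparison and 5 lay under the filter level. Of the 58 member genes with at least 2 tested probe sets, the signs of all their probe sets were the same in 28 genes for ET3x1 and S, 33 for ET3x2 and S and 38 between the substrains. Zbtb20 was the 1 gene of these with all tested probe sets called in a comparison. Many members differed little, with quartiles of −0.09 and 0.08 between the substrains, where a sign says little. The same counts of signs over all genes are not given here. Probe sets ending in _s_at, _x_at or _a_at can match several transcripts, and where each probe set lies in its transcript was not analysed here.

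**Figure D2:**
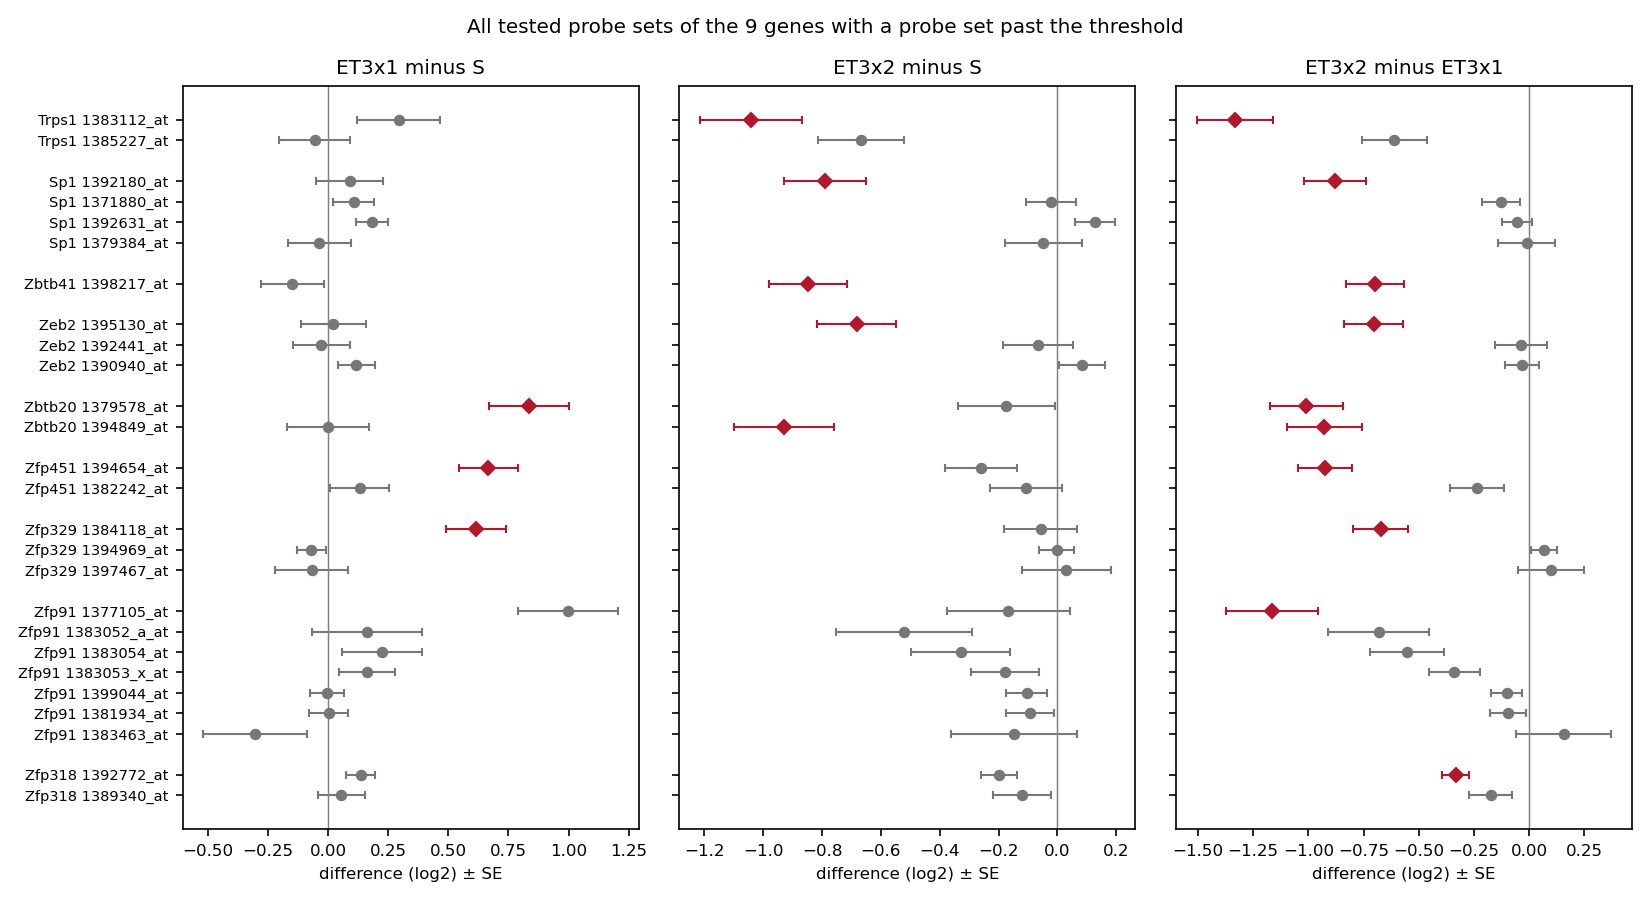
Difference of group means (log2, horizontal axis, with SE) for each of the 26 tested probe sets of the 9 called genes, in 1 panel per comparison, with called probe sets as red diamonds and the others as grey circles. Both Trps1 probe sets lie left of 0 in the ET3x2 panels, while the 3 other Sp1 and the 2 other Zeb2 probe sets lie near 0.

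A pair of members was measured on both arrays with the same probe set. Zfp644 1367505_at gave 0.11 and 0.19 on RAE230A and RAE230B for ET3x1 and S, −0.01 and 0.03 for ET3x2 and S, and −0.12 and −0.16 between the substrains. Zfp592 1367524_at gave −0.02 and −0.12, −0.08 and −0.10, and −0.06 and 0.01. The arrays gave values within about 0.1 of each other for these genes.

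By family, the calls lay in the Zbtb genes (1 of 33 tested probe sets for ET3x1 and S, 2 for ET3x2 and S and 3 between the substrains), in the same order Sp1 and Trps1 (0, 2 and 2 of 6), Zeb (0, 1 and 1 of 4) and the Zfp and Znf genes (2, 0 and 4 of 206). Sp1 and Trps1 form no family and entered the rule by name, chosen with earlier results known, so their count is no independent result. Among the 22 tested Klf and 3 tested Zhx probe sets limma called 0 in each comparison. At an unadjusted p under 0.05 the Klf probe sets counted 8, 1 and 5 and the Zhx probe sets 0, 1 and 0, where over all tested probe sets the shares were 11.8%, 10.9% and 13.1%. The called shares over all tested probe sets were 0.44%, 0.344% and 1.48%, and those of the Zfp and Znf genes were 0.971%, 0% and 1.94%.

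**Figure D3:**
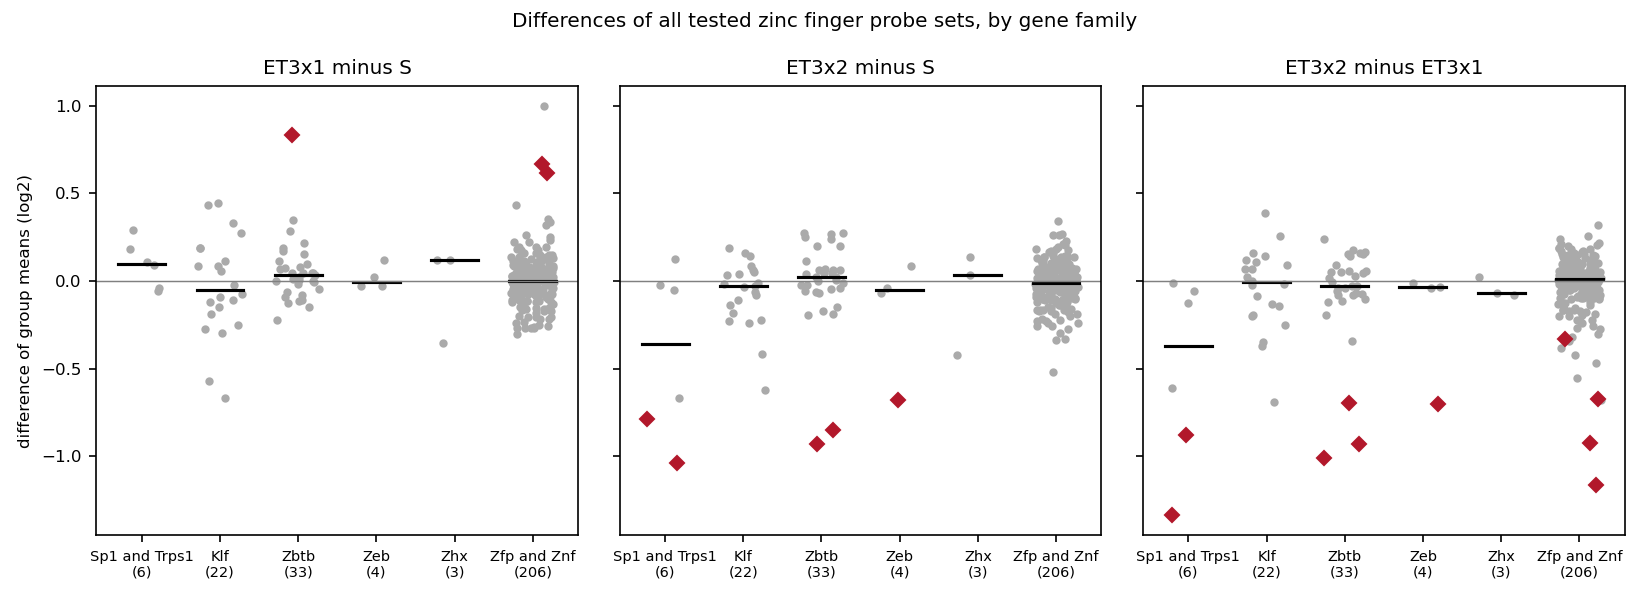
Difference of group means (log2, vertical axis) of every tested zinc finger probe set by gene family (horizontal axis, number tested in brackets), with called probe sets as red diamonds and the family median as a bar. The Klf, Zbtb, Zeb and Zfp medians lie near 0 in all 3 panels, and the called probe sets of ET3x2 against ET3x1 all lie below 0. The column of Sp1 and Trps1 holds genes taken by name and is no family.

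The Klf genes had no call, and Klf6 and Klf9 lay closest to the threshold. Klf6, an early gene of injury and fibrosis, read 9.97, 9.79, 10.03 and 9.58 in S, 9.62, 9.81, 9.34 and 9.51 in ET3x1, and 9.21, 9.28, 9.29 and 9.11 in ET3x2 with 1387060_at. The ET3x2 pools were below all others, and the difference from S was −0.62 (SE 0.111, adjusted p = 0.0523). It passed in 10 of 22 alternatives, among them the fits without S pool D (0.0120), ET3x1 pool F (0.0463) or G (0.0367), or ET3x2 pool J (0.0390).

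The second Klf6 probe set, 1388986_at, read 9.40, 9.31, 8.53 and 8.03 in S, 8.42, 8.37, 7.84 and 7.96 in ET3x1, and 8.30, 8.83, 8.37 and 8.11 in ET3x2. Its highest S pools were A and B and its highest ET3x2 pool was J, the 3 pools with the highest actin 5' minus 3' signal, and it gave −0.67 in ET3x1 against S (SE 0.256, adjusted p = 0.291). Klf15, a metabolic factor induced by glucocorticoids, had the same high pools with 1381396_s_at, at 9.19, 9.13, 8.35 and 8.42 in S, 8.17, 8.60, 8.08 and 7.96 in ET3x1, and 8.67, 9.29, 8.30 and 8.10 in ET3x2. Its difference in ET3x1 against S was −0.57 (SE 0.253, adjusted p = 0.461), and the other tested Klf15 probe set, 1368249_at, gave −0.12.

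Klf9, a glucocorticoid-induced factor tied to the circadian clock, had the highest mean signal of the Klf probe sets with 1370209_at (11.55). It read 12.04, 11.39, 11.43 and 11.06 in S, 12.14, 11.89, 12.05 and 11.63 in ET3x1, and 11.31, 11.15, 11.06 and 11.44 in ET3x2. All ET3x1 pools were above all ET3x2 pools, with −0.69 between the substrains (SE 0.170, adjusted p = 0.0754), and S spanned both. Without pools A, B and J the difference between the substrains was −0.66 and passed (adjusted p = 0.0368). The other tested Klf9 probe set, 1387882_at, gave 0.02 between the substrains, and −0.25 in ET3x1 against S where 1370209_at gave 0.45, none of them called. The 7 tested genes of a glucocorticoid-induced list (8 probe sets, with Fkbp5, Tsc22d3, Per1 and Sgk1) had 0 calls in each comparison and 0, 1 and 0 at an unadjusted p under 0.05. The differences of that list between the substrains ran from −0.31 to 0.03.

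In ET3x2 against ET3x1, 7 of the 22 Klf probe sets (31.8%) had groups that did not overlap, 5 lower and 2 higher, where 9.15% of all tested probe sets had such groups. In ET3x1 against S it was 4 of 22 (18.2%), all higher, against a background of 6.4%, and in ET3x2 against S 1 of 22 (4.55%) against 5.95%. Over all members the shares were 12% (33 probe sets, 25 lower), 5.84% (16, of which 12 higher) and 6.93% (19, of which 11 lower), in the same order. For Zbtb they were 12.1%, 6.06% and 18.2%, and for Zfp and Znf 8.74%, 4.85% and 3.88%. The few probe sets of Zeb gave 25%, 0% and 25%, those of Sp1 and Trps1 50%, 0% and 50%, and those of Zhx 0% in each. Several Klf probe sets read the same gene and are not independent.

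**Figure D4:**
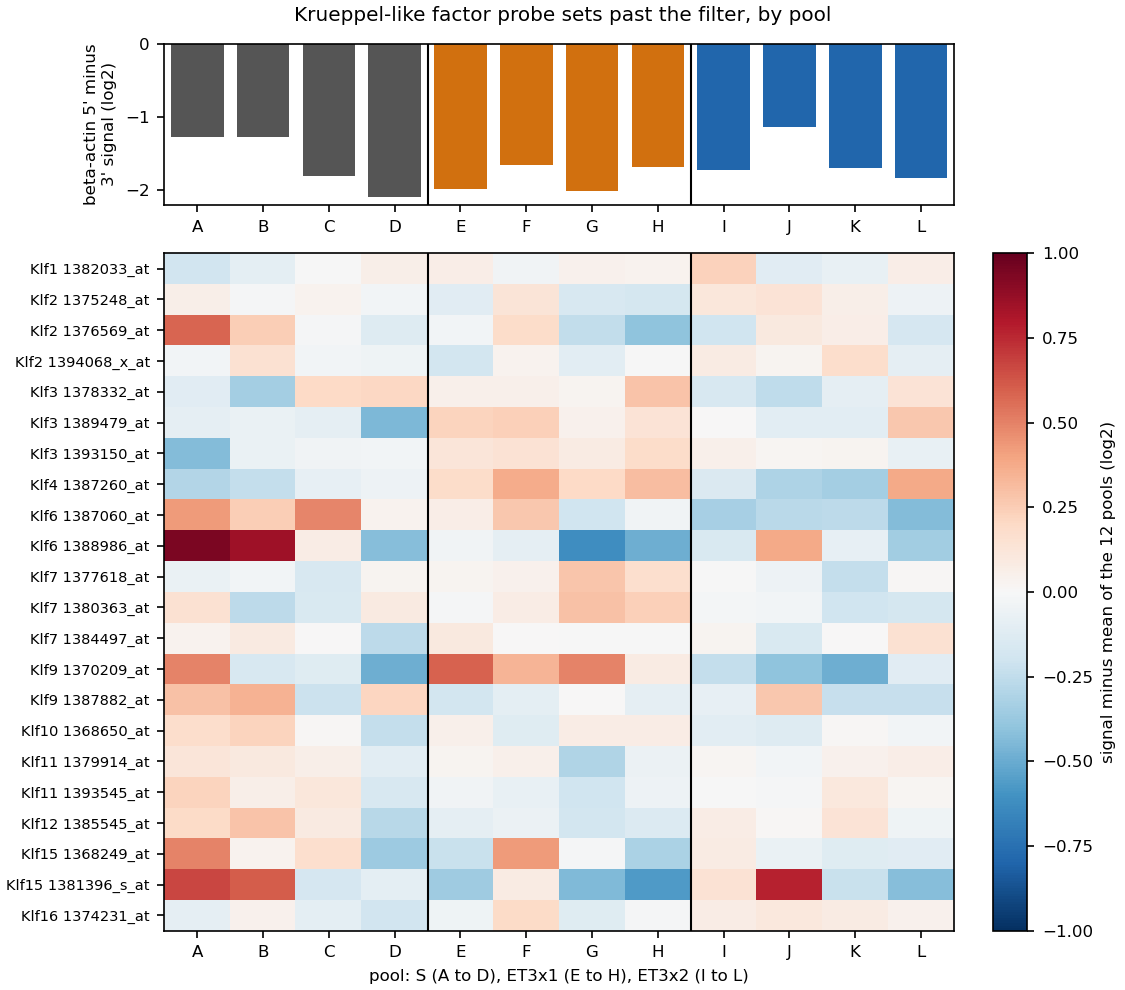
Signal of the 22 tested Klf probe sets in each pool minus the probe set's mean over the 12 pools (log2, colour), below bars of the actin 5' minus 3' control signal of the pool on RAE230A (log2). Klf6 1388986_at and Klf15 1381396_s_at are high in pools A, B and J, whose bars are the shortest, and Klf9 1370209_at is highest in the ET3x1 pools and S pool A.

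Pools A and B lay above C and D by over 0.5 in 11 of the 274 tested members (4.01%, against 3.2% of all tested probe sets), and in 4 of these pool J was over 0.5 above the other ET3x2 pools (1.46%, against 1.51% of all tested probe sets). Both shares lie near the background. The 4 were Klf6 1388986_at (1.07 and 0.57), Klf15 1381396_s_at (0.77 and 0.93), Zfp91 1383463_at (0.83 and 0.72) and Zfp106 1395532_at (0.65 and 0.71), chosen after their values were seen. Of the called probe sets Zbtb20 1379578_at and Zfp91 1377105_at were among the 11, with A and B above C and D by 0.70 and 0.57 and J at −0.05 and 0.02 from the other ET3x2 pools. Whether RNA completeness contributes to these values was not tested.

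Zbtb7a, a repressor of fetal globin genes, was among the members not called. With 3 of its 4 probe sets all ET3x2 pools lay above all S pools. In 1391035_at the S and ET3x2 pools overlapped, with a difference of −0.02 in ET3x2 against S. Over all tested probe sets 5.95% had S and ET3x2 pools that did not overlap, in either direction. Zbtb7a was named for its large differences, and probe sets of the same gene are not independent. The count of 3 is therefore no independent evidence of a rise. Probe set 1387107_at read 9.34, 9.33, 9.30 and 9.38 in S, 9.45, 9.52, 9.28 and 9.56 in ET3x1, and 9.51, 9.60, 9.62 and 9.72 in ET3x2, a difference from S of 0.27 (SE 0.0765, adjusted p = 0.201). Probe sets 1378122_a_at and 1378123_x_at gave 0.27 and 0.25 against S, with adjusted p of 0.376 and 0.293, and may share transcripts. In ET3x1 against S they gave 0.35 (adjusted p = 0.228) and 0.29 (adjusted p = 0.174), with pool G low in both.

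Zfp524 1389657_at read 8.88, 8.85, 9.05 and 8.72 in S, 8.88, 8.89, 8.92 and 8.92 in ET3x1, and 9.31, 9.11, 9.12 and 9.34 in ET3x2. All ET3x2 pools were above all others, with 0.34 against S (SE 0.0824, adjusted p = 0.141) and 0.32 against ET3x1 (adjusted p = 0.0867), not called. Zfp503, a corepressor of the developing brain and limb, read 10.62, 10.45, 10.49 and 10.52 in S, 10.95, 11.07, 10.72 and 10.77 in ET3x1, and 10.63, 10.54, 10.65 and 10.66 in ET3x2 with 1386721_at. The ET3x1 pools were above all others, with 0.36 against S (SE 0.0795, adjusted p = 0.0713), while its probe sets 1393990_at and 1377241_at gave 0.44 and −0.21, also not called. Zfp771 1394222_at gave −0.25 in ET3x1 against S (SE 0.0804, adjusted p = 0.257) and 0.26 between the substrains (adjusted p = 0.173), where its 2 other tested probe sets gave 0.07 and 0.05.

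Zhx1, a zinc finger and homeobox repressor, read 8.85, 8.74, 8.35 and 7.75 in S, 8.23, 8.14, 7.80 and 8.12 in ET3x1, and 7.79, 8.23, 8.18 and 7.80 in ET3x2 with 1368175_at. The S pools alone spanned the range of both other groups, and the differences of −0.35 and −0.42 from S (SE 0.194) were not called, with adjusted p of 0.443 and 0.426. The brightest Zeb, Zhx and Zfp probe sets, Zeb1 1370965_at (mean 9.20), Zhx2 1384217_at (8.96) and Zfp697 1373680_at (11.28), differed between the groups by at most 0.04, 0.14 and 0.30 in size, and none was called. The brightest probe set with a Zbtb name was Zbtb8os 1389907_at (10.95), whose product helps to assemble the tRNA ligase, with −0.19 in ET3x2 against S.

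Of the called probe sets 2 lay on each of chromosomes 1, 7, 9 and 11 and 1 on each of 3 and 13. Of the 13 tested member probe sets on chromosome 3 (9 genes) 1 was called, Zeb2, in both comparisons with ET3x2 (7.69%). Over all 1177 tested probe sets of chromosome 3 the called shares were 0.765% for ET3x1 and S, 0.425% for ET3x2 and S and 2.04% between the substrains. In the RefSeq gene order 1343 protein-coding genes lie between Zeb2 and Edn3, of 1863 on the chromosome. The members nearest to Edn3 were Zfp217, with 39 genes between, Zfp64 (43, under the filter level) and Zfp512b (74, on the other side). Zfp217 1389742_at differed by −0.27 in ET3x1 against S (adjusted p = 0.240) and −0.15 in ET3x2 against S (adjusted p = 0.537), and neither was called. The limits of the replaced stretch were not analysed here.

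Other genes of the same machinery were taken from lists. The corepressors and chromatin enzymes through which zinc finger factors act, such as Trim28, Ctbp1 and Ncor1, were tested with 30 probe sets of 17 genes, and limma called 0 in each comparison. At an unadjusted p under 0.05 stood 4 of the 30 for ET3x1 and S, 3 for ET3x2 and S and 7 between the substrains, where 11.8%, 10.9% and 13.1% of all tested probe sets did. The median differences of the list were 0.01, −0.02 and −0.05. Known targets of Zeb and Klf factors (9 probe sets of 4 genes) had 0 calls too, with 2, 1 and 1 at an unadjusted p under 0.05.

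Zinc finger factors outside the naming rule, such as Wt1, Gata3 and Ctcf, were tested with 31 probe sets of 22 genes. In ET3x1 against S 1 was called, between the substrains 2, and in ET3x2 against S 0, where 0.44%, 1.48% and 0.344% of all tested probe sets were called. In the last of these 2 of the 31 stood at an unadjusted p under 0.05, against 10.9% of all tested probe sets. Mecom, a factor of blood stem cells and distal nephron, read 8.72, 8.63, 8.73 and 8.99 in S, 9.47, 9.60, 9.37 and 9.23 in ET3x1, and 8.60, 8.71, 8.25 and 8.71 in ET3x2 with 1395073_at. All ET3x1 pools were above all others. Mecom rose in ET3x1 by 0.65 against S (SE 0.112, adjusted p = 0.0166) and was lower in ET3x2 than in ET3x1 by 0.85 (adjusted p = 0.00132), while its brighter probe set 1376082_at gave 0.06 and −0.16. Prdm2, a histone methyltransferase with zinc fingers, was lower in ET3x2 than in ET3x1 by 0.45 with 1389104_s_at (SE 0.0899, adjusted p = 0.0294), and its other tested probe sets gave −0.07 and −0.09.

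The cell type marker lists had 0 calls by limma in each comparison. At an unadjusted p under 0.05, in the order of ET3x1 and S, ET3x2 and S, and the substrains, stood 1, 2 and 2 of 7 tubule probe sets, 1, 1 and 1 of 5 endothelial, 3, 1 and 2 of 7 stromal, 0, 1 and 1 of 3 leucocyte, 0, 0 and 1 of 2 red cell, 0, 0 and 0 of 2 fat and 0, 0 and 0 of 1 podocyte probe sets. The same shares over all tested probe sets were 11.8%, 10.9% and 13.1%.

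**Figure D5:**
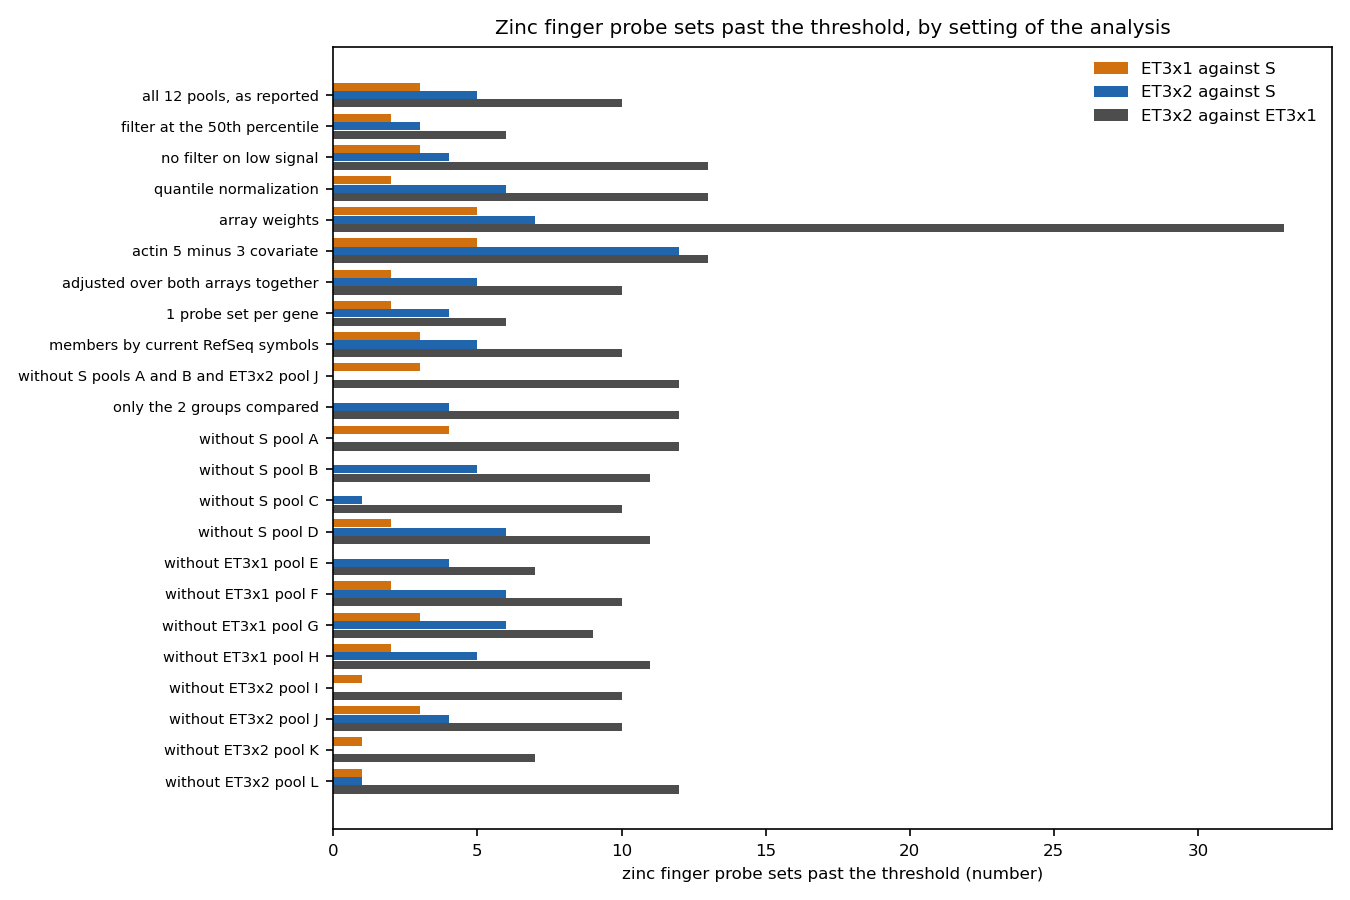
Number of called zinc finger probe sets (horizontal axis) in each comparison (bar colours) under the analysis as reported and each alternative (vertical axis), where no bar means 0. ET3x2 against ET3x1 has at least 6 calls in every alternative shown, not always of the same probe sets. Both comparisons with S fall to 0 in some. The bars count members only, without the share over all tested probe sets in the same setting.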

How the data were processed

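Signals of 12 kidney RNA pools on Affymetrix RAE230A and RAE230B arrays were analysed. Per the labels' protocols, cDNA was made with an oligo(dT) primer and its cRNA carried biotin, so that probe sets read mostly 3' ends. The deposited values, 4.97 to 15.2 on RAE230A and 4.10 to 13.5 on RAE230B, were taken as log2 signal because of this range. How they were summarised, background-corrected and normalised is not given in the sources used here. Control probe sets (57 per array) were left out, and probe sets under the 30th percentile of mean signal were not tested. Each array was fitted with limma 3.58.1 (lmFit, eBayes with a trended prior, R 4.3.3), without covariates since the labels give no batch. The 3 groups shared one spread, tests were two-sided, and p-values were adjusted by Benjamini-Hochberg within each contrast over the tested probe sets of the array, 11106 on RAE230A and 10693 on RAE230B. The scripts were tested on simulated data.

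Members, lists and alternatives were chosen with earlier results of these data known. Symbols came from the platform annotation, and 400 of 406 member probe sets matched a RefSeq (GRCr8) gene identifier. Named are all called members, every other probe set of their genes and of Zbtb20, Zbtb41, Zeb2, Trps1 and Sp1, the brightest member of each family, and in each comparison the 3 uncalled members with the smallest p and the 3 highest and 3 lowest differences, with up to 4 called genes per list. The lists held corepressors, other zinc finger factors, glucocorticoid-induced genes, targets of Zeb and Klf, and markers of tubule, podocyte, endothelium, stroma, leucocytes, adrenal, red cells and fat. The 22 alternatives changed the filter, scaling, array weights, actin covariate, adjustment, probe sets per gene, symbols and pools used. The number of arrays limits the precision. Figures were drawn with matplotlib 3.10.9.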

Additional observations from a re-analysis of the deposited data

Results flagged for a closer look

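In 7 of 138 groups of 4 pools, over the 46 zinc finger probe sets named, 1 pool lay far from the other 3, with a gap to the nearest above Dixon's critical value for 4 values. Chance flags about 1 in 20 groups. In S these were pool A of Sp1 1369247_at at 6.32, with the others at 6.39 to 6.40, and pool D of Zeb2 1392441_at at 7.58, with the others at 7.02 to 7.09. In ET3x1 pool G stood apart in Zbtb7a 1378123_x_at (7.72, others 7.97 to 8.02), Zfp451 1382242_at (7.37, others 7.67 to 7.70), Zfp91 1381934_at (7.44, others 7.15) and Zfp318 1381829_at (5.95, others 5.30 to 5.36). In ET3x2 it was pool L of Zfp318 1381829_at at 5.29, with the others at 5.12 to 5.14. None of these is a called probe set, and those of Sp1 and Zfp318 lie under the filter level.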

How the results depend on the processing

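The 22 alternatives reversed 0 of the 18 calls. In ET3x1 against S the 3 calls became 5 with array weights, 5 with the actin 5' minus 3' signal as covariate and 0 with only both groups compared in the fit, and 0 to 4 when 1 pool was left out (0 without B, C or E, 1 without I, K or L). In ET3x2 against S the 5 calls became 3 with the filter at the 50th percentile, 12 with the actin covariate (10 lower and 2 higher), 0 without pools A, B and J, and 0 to 6 with 1 pool left out (0 without A, I or K, 1 without C or L). In ET3x2 against ET3x1 the 10 calls became 6 with the 50th percentile filter, 33 with array weights (28 lower and 5 higher) and 6 with 1 probe set per gene, and 7 to 12 with 1 pool left out (7 without E or K). The matching shares over all tested probe sets are not set beside these counts, so that the changes cannot be read as particular to the members. With the 50th percentile filter the called probe sets of Zfp451, Zfp91, Zeb2 and Zbtb41 and Zbtb20 1394849_at were not tested, so their calls could not be kept. With 1 probe set per gene the same ones except Zbtb41 were not tested. The cause of the other changes was not tested. Of 9 uncalled results near the threshold, 8 passed in at least 1 alternative. No paired analysis was possible because each pool has its own letter and no rats are shared between pools. Low signal limits Zbtb41, Zfp451, Zfp91 1377105_at and Zbtb20 1394849_at, whose means in at least 1 group lay under the filter level.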

Other observations

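Without a filter on low signal, 3 of the 132 member probe sets not tested before passed in ET3x2 against ET3x1, all lower in ET3x2. Their means lay under the filter level in every group. The share over all probe sets that the filter had left out is not given here. With the filter, 302 of the 323 calls over all tested probe sets in this comparison were lower too. Zeb2 1393795_at read 5.87, 5.64, 5.57 and 5.43 in S, 6.44, 6.07, 6.25 and 5.84 in ET3x1, and 5.31, 5.43, 5.11 and 5.07 in ET3x2, with −0.92 between the substrains (SE 0.125, adjusted p = 0.00196). Klf5, a factor of collecting duct epithelium, gave −0.39 with 1385961_at (SE 0.0772, adjusted p = 0.0204), with 5.53 to 5.92 in ET3x1 and 5.35 to 5.38 in ET3x2. Zfp182 1376324_at gave −0.30 (SE 0.0627, adjusted p = 0.0423). At these levels the size of a difference depends on the background, and no fold is given.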
